A study of Rattus norvegicus with 12 samples.

Results

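The transcripts described here encode 10 proteins that govern the G1 phase of the cell cycle: the D-type cyclins Ccnd1, Ccnd2 and Ccnd3, the cyclin-dependent kinases Cdk2, Cdk4 and Cdk6, the kinase inhibitors Cdkn1a (p21) and Cdkn1b (p27), the small kinase-binding protein Cks1b, and the retinoblastoma protein Rb1. They were chosen by gene name among the probes of a one-colour rat microarray, and 16 of the array's 45598 probes carry one of these names. At least 1 probe stood well above background on 6 or more of the 12 arrays for 8 of the 10 genes, which placed those 8 among the 13542 genes and transcripts tested. Ccnd1 and Ccnd2 were not tested. The list was drawn up with the fipronil comparison already known, so the values of that comparison describe these genes and do not test them as a group.

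The arrays measured total RNA of N27 cells, an immortalised line from fetal rat midbrain labelled as dopaminergic neurons. Of the 12 samples, 6 received 25 µM fipronil, an insecticide acting on the GABA-gated chloride channels of nerve cells, for 24 h, and 6 were not treated. All came from this 1 cell line. The labels name no vehicle for the control cells and do not say whether the replicates were separate cultures, so the spread that the p-values rest on may be technical.

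Th, the rate-limiting enzyme of dopamine synthesis and a defining marker of the labelled cell type, stood well above background on 12 arrays. Its log2 signal was -1.37 ± 0.29 (SD, n = 6) in control and -1.86 ± 0.42 (SD, n = 6) in fipronil cells, a difference of -0.48 (adjusted p = 0.152), with 0.10 on slide 1. Slc6a3, the dopamine transporter, was above background on 0 arrays. Only 2 of 10 dopaminergic markers and 2 of 9 general neuronal markers were tested, against 0 of 5 for astrocytes, 1 of 5 for oligodendrocytes, 2 of 6 for microglia and leukocytes, 1 of 4 for endothelium and 2 of 5 for fibroblasts. Of these markers only Col1a1, a fibroblast collagen, passed the test, at 0.98 ± 0.24 (SE) log2 higher with fipronil (adjusted p = 0.0375). Its slide 1 value was 0.09, its call held in 2 of 12 fits that left out an array, and it was lost with slide as a random block (adjusted p = 0.251). The part of other cell types in the results was not tested.

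The arrays lay on 3 slides, and slide and treatment nearly coincided. Only slide 1 carried both treatments, with controls 2 and 3 beside fipronil samples 7 and 8. The other 4 controls were on slide 2 and the other 4 fipronil samples on slide 3. The slides differed in brightness: their arrays' 75th percentile of processed signal had a mean of 260 ± 16.9 on slide 1, 436 ± 43.5 on slide 2 and 126 ± 15.2 on slide 3 (SD, n = 4 each). The share of spots well above background was 44.5% to 46.8%, 47.4% to 50.02% and 40.8% to 42.5% on the 3 slides. Each log2 value below is therefore relative to the 75th percentile of its own array, so that 0 means a signal at that percentile, and for the tested members the comparison within slide 1 is given beside the pooled one. In RNA from whole cultures, fewer cells with a transcript and less of it per cell cannot be told apart.

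A cell in G1 passes into S phase once the pocket protein RB1 has been inactivated by phosphorylation. D-type cyclins, made in response to growth factors, activate CDK4 and CDK6 to begin this step, and CDK2 with E-type cyclins completes it. RB1 then releases E2F factors, which turn on genes of DNA replication. The inhibitor p21 is a direct target of p53, p27 accumulates in resting cells, and CKS1 is the cofactor with which the SKP2 ubiquitin ligase recognises p27 for destruction. N27 cells were immortalised with SV40 large T antigen, a viral protein that binds RB1 and p53.

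Each probe is a 60-base sequence taken from the transcript. The 4 shown here are dim and bright examples. Those of Ccnd1 and Ccnd2 gave signals at the edge of detection or below it, and those of Cdk4 and Cks1b were clear. Signals of different probes do not rank transcripts by amount. The Cdkn1a probes at bases 611 and 1689, for example, had control means of -4.17 and 0.82 log2. Positions are those the array files give on rat assembly rn4, and all 4 genes lie on the strand stated.
Ccnd1 probe, from base 785 of its transcript, chr1:205361630-205361689, minus strand: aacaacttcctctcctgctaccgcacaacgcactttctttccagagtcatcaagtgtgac
Ccnd2 probe, from base 561, chr4:163535032-163541856, minus strand: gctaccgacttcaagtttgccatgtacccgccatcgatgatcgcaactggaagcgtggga
Cdk4 probe, from base 736, chr7:67017293-67017352, plus strand: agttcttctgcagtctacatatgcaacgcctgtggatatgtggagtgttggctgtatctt
Cks1b probe, from base 160, chr2:181613597-181613656, minus strand: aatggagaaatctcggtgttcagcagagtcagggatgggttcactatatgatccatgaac
The Ccnd2 probe covers 6825 bases of the genome with its 60 bases, so it spans an intron and reads spliced RNA. The other 3 each lie in 1 uninterrupted stretch. Whether any of these probes also binds related sequences was not examined.

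Fipronil cells had lower signals for 2 of the 8 tested genes, Cks1b and Cdk2, and higher signals for 0. Over the whole array, 375 of 13542 genes were lower at an adjusted p below 0.05, which is 2.77%, and 303 were higher, which is 2.24%. In either direction 678 genes, or 5.01%, passed. The split of the called genes depends on scaling: with each array's median in place of its 75th percentile, 150 were higher and 435 lower, and the median difference of all genes moved from -0.08 to -0.18. With quantile normalization 362 were higher and 348 lower. Under normexp background correction with the 75th percentile, 5116 were higher and 1660 lower, around a median of 0.17. The median difference of the 8 genes was -0.32 on the main scale. On slide 1 alone it was -0.37 against -0.02 for all genes.

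**Figure D1:**
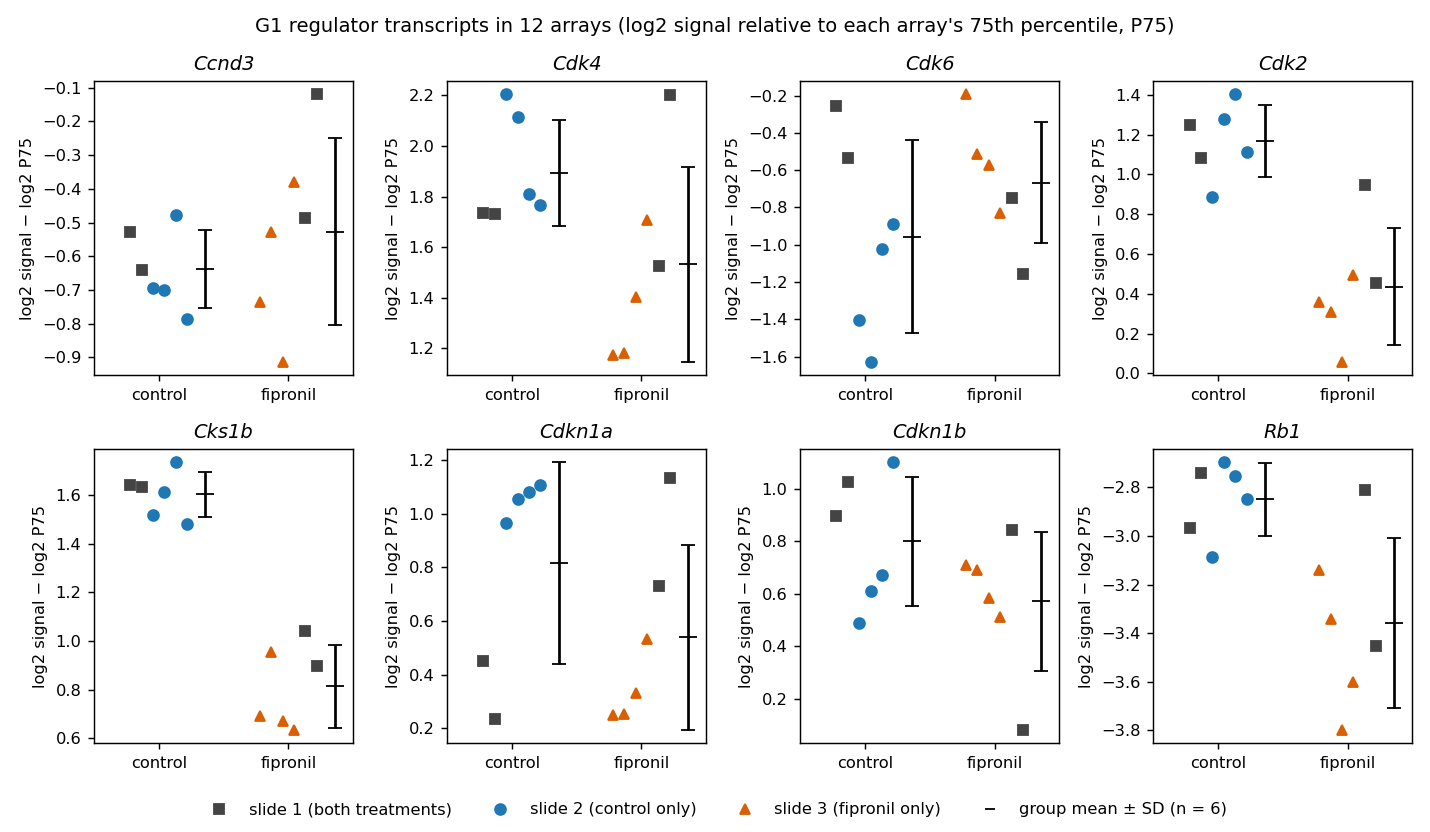
Log2 signal of each tested gene relative to the array's 75th percentile (y axis), by treatment (x axis); each point is 1 array, its shape gives the slide, and bars give the mean and SD over 6 arrays. For Cks1b the 6 fipronil arrays, at most 1.04, lie below every control array, at least 1.48, while the Cdkn1a points of slide 1 lie in the opposite order to those of slides 2 and 3.

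The D-type cyclins are the growth factor sensors of the cycle. Ccnd3 was the only one of the 3 measured above background on every array. Its log2 signal ran from -0.79 over a median of -0.67 to -0.48 in control cells and from -0.91 over -0.51 to -0.12 in fipronil cells. The groups overlapped almost fully. Fipronil minus control came to 0.11 ± 0.13 (SE, adjusted p = 0.637). Slide 1 alone gave 0.28, and slides 2 and 3 gave 0.02.

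Ccnd1, the D-type cyclin most tied to mitogen signalling, was at the detection limit. The lowest processed signal of any spot well above background was 10.3 to 14.0 units, depending on the array. The Ccnd1 probe at base 785 gave 7.90 to 26.1 units (median 14.9) in control and 3.78 to 14.8 units (median 7.47) in fipronil cells. It was well above background on 3 of 6 control arrays, all on slide 2, and on 0 of 6 fipronil arrays. The probe at base 3431, printed 10 times on each array, gave 6.44 to 15.7 units (median 14.8) in control and 4.50 to 10.65 units (median 5.93) in fipronil cells. It too was above background on 3 control arrays of slide 2, the brightest slide, and on 0 fipronil arrays. Relative to the 75th percentile the means were -4.68 against -4.47 for the first probe and -4.98 against -4.77 for the second, so no fold change is given.

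Ccnd2 gave 2.51 to 3.30 units in control and 2.35 to 3.13 units in fipronil cells, under the limit on all 12 arrays. These values were not well above background, and no difference was detectable.

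**Figure D2:**
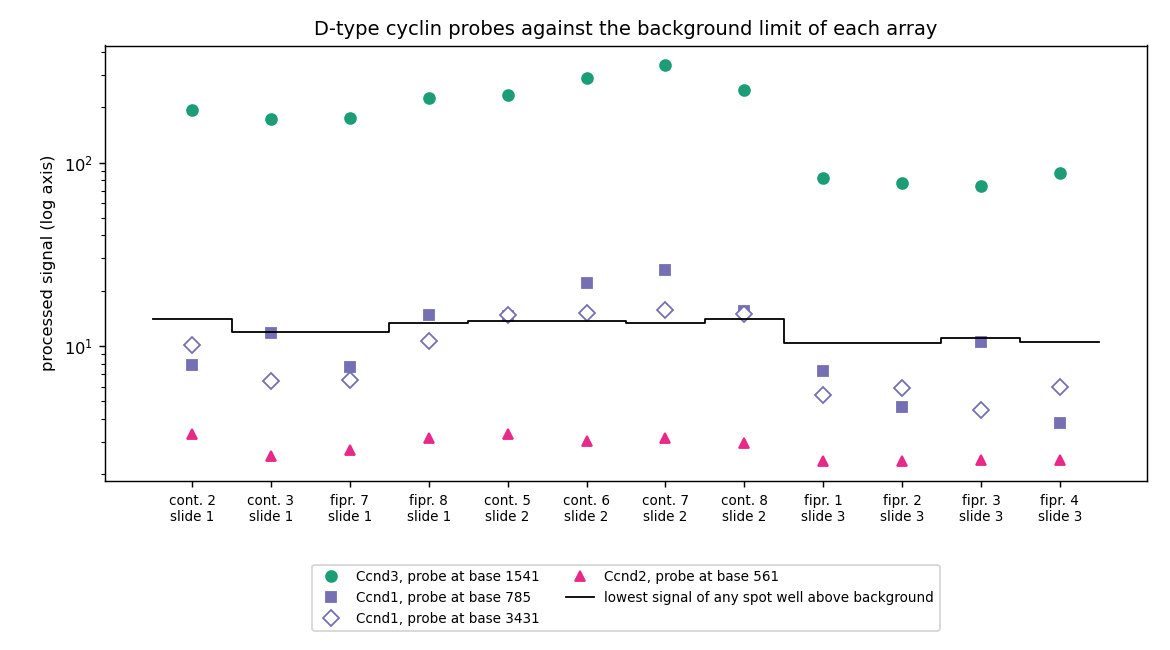
Processed signal (log axis) of the D-type cyclin probes on each array, ordered by slide, with the line at the lowest signal of any spot well above background on that array. The signals are not scaled between arrays, and slide 3 was the dimmest slide. Ccnd3 lies above the line on 12 arrays, Ccnd2 below it on 12, and Ccnd1 near it.

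Cdk4 and Cdk6 are the kinases that D-type cyclins activate. Cdk4 ran from 1.73 over 1.79 to 2.20 in control and from 1.17 over 1.46 to 2.20 in fipronil cells. The 2 highest arrays of the groups, control replicate 5 and fipronil replicate 8, were level, and the groups overlapped. The difference was -0.36 ± 0.18 (SE, adjusted p = 0.216). Between slides 2 and 3 it was -0.61, and within slide 1 it was 0.13, where the fipronil arrays read 1.53 and 2.20 and both controls 1.73. Without fipronil replicate 8 the difference was -0.50 and the adjusted p 0.0356.

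Cdk6 was measured by 3 probes above background on all 12 arrays, which did not move together. For the one with the highest mean over all 12 arrays, at base 3184, control arrays ran from -1.63 over -0.96 to -0.26 and fipronil arrays from -1.16 over -0.66 to -0.19. The difference was 0.29 ± 0.23 (SE, adjusted p = 0.455). The probes at bases 1241 and 5087 gave differences of -0.19 and -0.25. Across the 12 arrays the correlation between pairs of these probes was 0.24, 0.33 and 0.57, a description of probes that share arrays.

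All 3 Cdk6 probes had negative differences within slide 1, at -0.69, -0.56 and -0.98 in the order of their position. Between slides 2 and 3 they were at 0.06, 0.71 and 0.12. At base 3184 the difference between these 2 contrasts was 1.27 ± 0.34 (SE, adjusted p = 0.0426). Among all genes 9.14% passed that test of a difference between slides, and 2 of the 8 members did, Cdk6 and Cdkn1a.

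Cdk2 drives the later part of G1 and S phase with its E- and A-type cyclins. Control arrays ran from 0.89 over 1.18 to 1.40 and fipronil arrays from 0.06 over 0.41 to 0.94. Only fipronil replicate 7, at 0.94, reached into the control range, above control replicate 5 at 0.89. The means were 1.17 ± 0.18 and 0.44 ± 0.29 (SD, n = 6 each), a difference of -0.73 ± 0.15 (SE), or 1.66-fold lower (adjusted p = 0.0187).

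Cks1b binds cyclin-dependent kinases and helps to mark p27 for degradation. Its probe at base 160, printed above, ran from 1.48 over 1.62 to 1.73 in control and from 0.63 over 0.79 to 1.04 in fipronil cells. The groups did not overlap. The means were 1.60 ± 0.09 and 0.81 ± 0.17 (SD, n = 6 each), a difference of -0.79 ± 0.11 (SE), or 1.73-fold lower (adjusted p = 0.0055). Of all genes, 2.55% had fipronil arrays entirely below the control arrays, and of the 8 members 1 did.

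The other Cks1b probe, at base 1531, read 1.25 to 1.63 in control and 0.43 to 1.10 in fipronil cells. These groups did not overlap either. The difference was -0.63 ± 0.12 (SE, adjusted p = 0.0175, in a fit of 16291 probes of which 2.98% were lower). Over the 12 arrays the values of both probes had a Pearson correlation of 0.906, which includes the gap between the treatments. Within the controls their order differed: replicate 7 was highest at base 160 (1.73) and replicate 5 at base 1531 (1.63). Cks1b is the only one of the 3 genes with several tested probes whose probes gave the same sign.

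**Figure D3:**
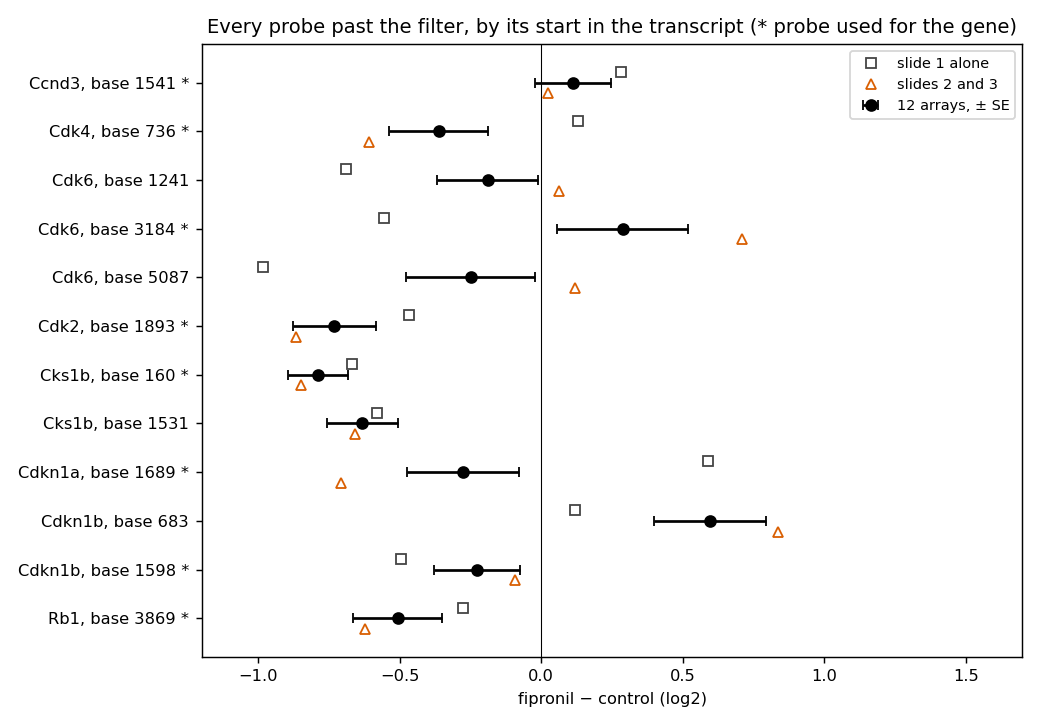
Fipronil minus control difference in log2 signal (x axis) for each of the 12 member probes that passed the filter, by the base where it starts; filled circles with SE are all 12 arrays, open squares slide 1 and open triangles slides 2 and 3. The pair of Cks1b probes lie at -0.79 and -0.63, whereas the probes of Cdk6 and those of Cdkn1b fall on both sides of 0.

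Neither decrease passed the test within slide 1, where there were 2 arrays of each treatment. Cks1b read 1.64 and 1.63 in the controls and 1.04 and 0.90 in the fipronil arrays of that slide, a difference of -0.67 ± 0.16 (SE, adjusted p = 0.108). Cdk2 read 1.25 and 1.08 against 0.94 and 0.45, a difference of -0.47 ± 0.23 (SE, adjusted p = 0.286). For both genes the 2 fipronil arrays lay below the 2 controls. So few arrays can readily fall in that order by chance, and its share over all genes was not counted. Between slides 2 and 3 the differences were -0.85 and -0.86.

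Within slide 1, 0 of the 8 members passed limma's test after adjustment and 2 had p below 0.05 before it, Cks1b and Cdkn1a. Of all genes 12, or 0.0886%, passed after adjustment, and 2578 had p below 0.05 before it. With slide as a random block, Cks1b remained below the threshold (adjusted p = 0.0453) and Cdk2 did not (-0.65, adjusted p = 0.114).

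Between the control arrays of slides 2 and 1, Cks1b differed by -0.05 ± 0.14 and Cdk2 by 0.0046 ± 0.19 (SE). In the fipronil arrays, slide 3 minus slide 1 was -0.23 ± 0.14 for Cks1b (adjusted p = 0.314) and -0.39 ± 0.19 for Cdk2 (adjusted p = 0.227).

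The inhibitor Cdkn1a behaved unlike both. Its probe at base 1689 was printed 10 times on each array, and the SD between those spots had a median of 0.11 log2 units, against an SD between arrays of 0.38 in control and 0.35 in fipronil cells. Control arrays ran from 0.23 over 1.01 to 1.11 and fipronil arrays from 0.25 over 0.43 to 1.13. The ranges coincided, and the pooled difference was -0.28 ± 0.20 (SE, adjusted p = 0.403).

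Split by slide, the Cdkn1a arrays formed 4 sets in opposite orders. On slide 1 the controls read 0.45 and 0.23 and the fipronil arrays 0.73 and 1.13, a difference of 0.59 ± 0.18 (SE, adjusted p = 0.137). On slide 2 the controls read 0.97 to 1.11, and on slide 3 the fipronil arrays read 0.25 to 0.53, a difference of -0.71 ± 0.12 (SE). The slide 1 controls, with a mean of 0.34, therefore sat level with the slide 3 fipronil arrays, also at a mean of 0.34.

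The treatment difference of Cdkn1a thus differed between slide 1 and slides 2 and 3 by -1.30 ± 0.22 (SE, adjusted p = 0.0137). An opposite sign in the 2 sets of slides, with no overlap of treatments in either, was found in 7.27% of all genes and in 2 of the 8 members, Cdk6 and Cdkn1a. Differences within a treatment were as large as those between treatments. Slide 2 controls exceeded slide 1 controls by 0.71 ± 0.15 (SE, adjusted p = 0.289), and slide 3 fipronil arrays lay below slide 1 fipronil arrays, with a difference of -0.59 ± 0.15 (SE, adjusted p = 0.0425).

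In that last comparison 7.48% of all genes passed, and Cdkn1a was the 1 member that did. In the control comparison 0% of genes passed limma's test after adjustment, while 2080 genes had p below 0.05 before it, with Cdk6 and Cdkn1a among them. No direction of Cdkn1a under fipronil can be read from arrays that disagree in this way, and treatment and slide cannot be told apart on slides 2 and 3.

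A dimmer Cdkn1a probe at base 611 was above background on 5 of 6 control and 0 of 6 fipronil arrays. It gave 6.82 to 35.9 units in control and 2.67 to 10.59 units in fipronil cells. Its mean relative to the 75th percentile was -4.17 in control cells, below the mean limit of the 6 fipronil arrays, -3.81, so no fold is given.

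**Figure D4:**
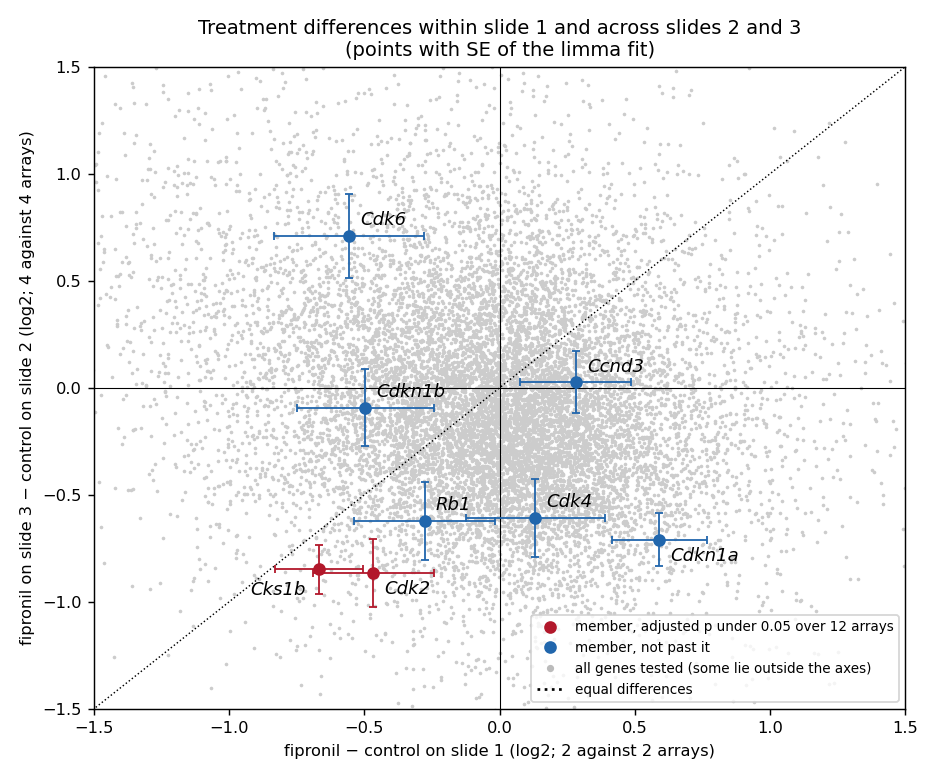
Fipronil minus control difference in log2 signal within slide 1 (x axis, 2 arrays against 2) and between slides 3 and 2 (y axis, 4 against 4), with standard errors for the 8 tested members, all genes in grey and a dotted line where both are equal. Cks1b and Cdk2 are below 0 on both axes, while Cdkn1a stands at 0.59 in the first and -0.71 in the second.

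Cdkn1b, the p27 inhibitor, read 0.49 to 1.10 (median 0.78) in control and 0.08 to 0.84 (median 0.64) in fipronil cells at its brighter probe, from base 1598. The groups overlapped, and the difference was -0.23 ± 0.15 (SE, adjusted p = 0.365), with -0.50 on slide 1. The probe at base 683 pointed the other way, with -1.82 to -0.81 in control and -1.38 to -0.38 in fipronil cells. Its difference was 0.60 ± 0.20 (SE, adjusted p = 0.0883), with 0.12 on slide 1. The probes correlated at 0.26 over 12 arrays, and the sign for this gene depends on the probe.

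Rb1, the target of the G1 kinases, was close to background on the fipronil arrays of slide 3. Control arrays ran from -3.09 over -2.80 to -2.70 and fipronil arrays from -3.80 over -3.40 to -2.81. It was well above background on 6 of 6 control and 3 of 6 fipronil arrays, so the fipronil mean rests in part on spots near background. The fipronil arrays that fell short were replicates 2, 3 and 4, all on slide 3, the dimmest slide. Within slide 1 the fipronil signals were 35.1 and 22.4 units, against 35.7 and 40.3 units in the controls. The pooled log2 difference was -0.51 ± 0.16 (SE, adjusted p = 0.0713), and on slide 1 it was -0.28. The sign turned under the normexp background correction with the 75th percentile, to 0.40 (adjusted p = 0.00899), the only one of 5 other scalings in which it did. Without fipronil replicate 7 the difference was -0.62 and the adjusted p 0.0238.

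The direction of the 7 other tested members was the same under all 5 scalings, for genes that passed and genes that did not. Cks1b and Cdk2 passed under all 5, from -0.89 to -0.59 and from -0.83 to -0.60. Between slide 1 and slides 2 and 3, 5 members kept their sign and 3 did not, Cdk4, Cdk6 and Cdkn1a. Over all genes 56.2% changed sign between these contrasts.

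The rest of the G1 network was taken from 8 gene lists. For comparison, 3390 of all 13542 genes, or 25.03%, had p below 0.05 before adjustment over the 12 arrays. Among 12 tested genes of the other G1 and S phase cyclins, kinases and activators, 0 passed limma's test in either direction and 2 had p below 0.05 before adjustment. The brightest were Cdc37, a chaperone partner of CDK4, at 0.17 ± 0.12 (SE), and Cdk1, the mitotic kinase, at 0.15 ± 0.10, with 0.15 and 0.04 on slide 1. The median difference of this list was -0.03. On slide 1 its median was -0.35, against -0.02 for all genes. Positive differences were found in 4 of the 12 genes on slide 1 and in 8 between slides 2 and 3. Over all genes these shares were 48.4% and 41.5%. Of 8 other inhibitors 0 passed, and 4 had p below 0.05 before adjustment, with a median of -0.21. On slide 1 the median was 0.12. Positive differences were found in 5 of these 8 on slide 1 and in 1 between slides 2 and 3. The brightest was Cdk2ap1, a protein that binds CDK2, at -0.27 ± 0.12 (SE, adjusted p = 0.175), with -0.48 on slide 1. Cdkn2a, whose locus encodes p16 and ARF, was at -0.47 ± 0.15 (SE, adjusted p = 0.0865), with 0.08 on slide 1.

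Among 19 tested pocket proteins, E2F and DP factors and members of the DREAM complex, which represses cell cycle genes in resting cells, 1 was higher and 2 were lower (median -0.04). Foxm1, an activator of G2 and M phase genes, was higher by 0.63 ± 0.14 (SE, adjusted p = 0.0279). Mybl2, which joins the MuvB core of DREAM in S phase, was lower, at -0.48 ± 0.11 (SE, adjusted p = 0.033), as was Rbbp7, a histone-binding protein, at -0.41 ± 0.11 (SE, adjusted p = 0.0423). For all 3 genes the groups did not overlap, which is likely for genes named by their small adjusted p. Tfdp1 and Rbl2 of this list did not overlap either and did not pass. Of all genes, 2.55% were lower without overlap, and the share higher without overlap is not given. On slide 1 they were at 0.28, -0.37 and -0.19. Leaving out single arrays, Foxm1 kept its call in 6 of 12 fits, Mybl2 in 3 and Rbbp7 in 2.

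Of 20 tested E2F target genes of S phase entry, 0 were higher and 2 were lower, with a list median of -0.31 against -0.08 for all genes. On slide 1 the list median was -0.18, against -0.02 for all genes. Of the 20 genes, 12 had opposite signs on slide 1 and between slides 2 and 3, against 56.2% of all genes. Pcna, the sliding clamp of DNA polymerases, ran from 2.84 to 3.13 in control and from 2.40 to 2.82 in fipronil cells, a difference of -0.39 ± 0.10 (SE, adjusted p = 0.0467). Its call held in 1 of 12 fits that left out an array. Gins2, a subunit of the replicative helicase, was lower, at -0.72 ± 0.14 (SE, adjusted p = 0.0187), and its call held in 12 of 12. On slide 1 Pcna was at -0.49 and Gins2 at -0.59.

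Of 21 genes that turn over cyclins and inhibitors, 0 passed and 4 had p below 0.05 before adjustment. The brightest were Cryab, a small heat shock protein listed for its part in cyclin D1 degradation, at 0.08 ± 0.10 (SE), and Skp1, the adaptor of SCF ligases, at -0.15 ± 0.14, with 0.24 and -0.47 on slide 1. Of 20 tested p53 genes, 0 passed and 8 had p below 0.05 before adjustment, with a median of -0.09. Bax, a death effector, was at -0.33 ± 0.15 (SE, adjusted p = 0.199) and Gadd45a, a stress protein, at -0.07 ± 0.17. By slide, Bax stood at 0.22 on slide 1 and -0.60 between slides 2 and 3, and Gadd45a at -0.51 and 0.16. Of the 20 genes, 12 had opposite signs in these contrasts, against 56.2% of all genes with opposite signs in either direction. Of the 12, 8 were positive on slide 1 and negative between slides 2 and 3, like Cdkn1a. The share of all genes in that direction was not counted, so no link to Cdkn1a is drawn.

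Of 26 mitogenic and stress inputs to D cyclin and inhibitor genes, 3 were lower and 1 was higher. Myc, a transcription factor that promotes G1 progression, ran from 0.29 to 1.19 in control and from -0.46 to 0.17 in fipronil cells. Those groups did not overlap, as in 2.55% of all genes in that direction. The difference was -0.86 ± 0.16 (SE, adjusted p = 0.0153), with -0.94 on slide 1. Ctnnb1, beta-catenin, was lower, at -1.05 ± 0.14 (SE, adjusted p = 0.00551), as was Junb, an AP-1 subunit, at -0.73 ± 0.17 (SE, adjusted p = 0.0288). On slide 1 Ctnnb1 was at -0.63 and Junb at -0.21, against -1.26 and -0.99 between slides 2 and 3.

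Gsk3b, the kinase that phosphorylates cyclin D1 and beta-catenin for degradation, was higher by 0.69 ± 0.17 (SE, adjusted p = 0.0396). It lay outside the rule for naming genes and was named after its value was seen. Its difference on slide 1 was 0.05, against 1.01 between slides 2 and 3, and its call held in 3 of 12 fits that left out an array. The call of Junb held in 4, and those of Myc and Ctnnb1 in 12 of 12. The median of the list was -0.05. The 9 genes of these lists that passed kept their sign under all 5 other scalings, but not all their calls or sizes. Myc, Mybl2 and Junb passed in all 5, Ctnnb1, Gins2, Foxm1 and Gsk3b in 4, Pcna in 3 and Rbbp7 in 2. Ctnnb1 ranged from -1.15 to -0.20, Gins2 from -0.82 to -0.11 and Junb from -0.83 to -0.23. With slide as a fixed block 0 of them passed, and with slide as a random block only Ctnnb1 did (adjusted p = 0.0453).

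Of 10 proliferation markers 0 passed and 3 had p below 0.05 before adjustment, with a median of -0.05. The mitotic kinases Plk1 and Aurka differed by -0.08 ± 0.12 and -0.01 ± 0.14 (SE). A positive difference was found in 4 of the 10 over all arrays, in 0 on slide 1, where values ran from -0.94 to -0.0062, and in 4 between slides 2 and 3, where they ran from -0.65 to 0.72. Over all genes 48.4% were positive on slide 1 and 41.5% between slides 2 and 3.

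The genes with a symbol whose 12 values followed each member most closely were sought among 9766, as a description with slide and treatment shared by all of them. Cks1b was nearest to Ywhaz (r = 0.976), a 14-3-3 protein that itself differed by -0.87, and to Fam162a (0.963). Cdk2 was nearest to Cr1l (0.956) and Eif1ax (0.945), a translation initiation factor. Cdk4 lay nearest to Mcm6 (0.976), a subunit of the replicative helicase, and to Cct5 (0.970), a chaperonin subunit.

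Cdkn1a was nearest to Ccl5 (0.948), a chemokine, and Abtb2 (0.948). Both had the slide pattern of Cdkn1a: Ccl5 differed by 0.79 on slide 1 and -1.11 between slides 2 and 3, and Abtb2 by 0.45 and -0.72. A shared slide pattern follows largely from choosing genes by correlation over the same arrays, here and for the other members. Cdk6 was nearest to Kdm7a (0.968), a histone demethylase, with -0.98 and 1.27 in the same contrasts, and to Nsd3 (0.965), a histone methyltransferase. Cdkn1b was nearest to Atad1 (0.949) and Serinc1 (0.944), and Rb1 to Lemd3 (0.927) and Poglut2 (0.917). Ccnd3 had the lowest best match, Lpin2 at 0.853, followed by Relt at 0.831.

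Promoter sequences from RefSeq, assembly GRCr8, were found for 7 of the 10 genes. Those of Cks1b and Cdk2 are shown, from 250 bases before to 30 bases after the annotated start, since these genes passed the test; capitals mark every match to the motifs named after them.
Cks1b, chr2:177135304-177135583, minus strand: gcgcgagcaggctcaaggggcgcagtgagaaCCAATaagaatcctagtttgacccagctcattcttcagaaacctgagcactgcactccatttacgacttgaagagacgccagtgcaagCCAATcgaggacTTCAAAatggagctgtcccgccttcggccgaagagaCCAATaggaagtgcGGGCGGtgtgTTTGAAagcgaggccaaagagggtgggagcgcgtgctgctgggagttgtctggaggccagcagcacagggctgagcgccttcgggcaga
Cdk2, chr7:1721849-1722128, minus strand: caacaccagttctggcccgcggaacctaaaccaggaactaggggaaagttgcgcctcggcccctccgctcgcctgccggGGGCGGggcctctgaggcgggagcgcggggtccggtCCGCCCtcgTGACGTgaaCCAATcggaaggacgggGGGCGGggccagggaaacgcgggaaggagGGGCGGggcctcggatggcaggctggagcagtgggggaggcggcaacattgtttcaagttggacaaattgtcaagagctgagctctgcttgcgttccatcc
Motifs were searched on both strands in the 250 bases before and 50 after each start. The Cks1b promoter held 3 CCAAT boxes, at 219, 131 and 83 bases before the start, 1 GC box (GGGCGG) at 69, and 2 matches to CHR, the cell cycle genes homology region (TTTGAA) that DREAM and MuvB complexes bind, at 119 (reverse strand) and 59. Of 33469 rat promoters, 18.3% held CHR, 37.5% held CCAAT and 33.1% held the GC box, and Cks1b was the only 1 of the 7 genes with CHR.

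The Cdk2 promoter held 4 GC boxes, 1 CCAAT box 117 bases before the start and 1 partial match to the cAMP response element (TGACGT, which the full element also contains), found in 7.94% of promoters, at 126. It had a GC content of 66.8% and Cks1b 57.5% over the stretches shown, against a median of 51.4% over the same stretch of all promoters. Of the 7 genes, 6 held a GC box and 4 a CCAAT box. An E2F site, read as TTTCGCGC, TTTGGCGC, TTTCCCGC or TTTGGCGG and present in 2.18% of promoters, was found in Rb1 alone. The E-box that Myc binds (CACGTG), in 6.42% of promoters, was found in Cdk4 alone, which held 3. AP-1 sites (TGANTCA) were in 7.33% of promoters and in 0 of the 7. The same count of 0 held for the full cAMP response element (TGACGTCA, in 1.83%) and for the TATA box (TATAAA, in 14.2%). The promoter of Cdkn1a, the one of the 7 with no GC box, held 0 matches to any motif searched. A match describes the letters in this window and shows no binding. The absence of a match likewise describes this window alone. Whether N27 cells use the annotated starts was not examined.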

How the data were processed

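The submitters' processing notes name Agilent Feature Extraction 10.7. The processed signal, per the file headers, is an intensity after background subtraction and detrending, not scaled between arrays. The well-above-background and outlier flags are other values set by the software, per the file headers. A value table deposited by the authors holds quantile-normalized log2 values, uncentred and with a floor of 1.5, and served as an alternative.

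Outlier spots were dropped unless all spots of a probe were marked. Signals were converted to log2, each array's 75th percentile over spots other than controls was subtracted, and spots of a probe were averaged. A probe passed the filter if at least 0.5 of its spots were flagged well above background on 6 or more of 12 arrays (16291 probes), and the brightest probe stood for its gene (13542 genes and transcripts). All of these entered 1 two-sided comparison of treatments by limma's lmFit and eBayes (limma 3.58.1, R 4.3.3, and version 1.17.8 of the data.table package), adjusted by Benjamini-Hochberg at a threshold of 0.05. Contrasts within and between slides came from a fit with 4 cells, treatment by slide. On simulated data for the 12-array comparison, 79% of genes changed by 1 log2 unit and 98% of those changed by 2 were recovered among 13542. There were 8 false calls. The simulated noise had the spread within treatment and slide and held no slide differences. These shares therefore do not describe arrays on which slide and treatment nearly coincide. The number of arrays limits the precision.

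Named genes were all 10 members; of each list, up to 3 that passed with the smallest adjusted p, or otherwise the 2 with the highest signal; and the 2 best correlated genes of each member. Of the cell type markers, Th and Slc6a3 were named by rule, and Col1a1 after its value was seen. Members and lists were chosen with earlier results of these data known. Alternatives covered scaling, background, filters, probe choice, slide, replicate number and left-out arrays.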

Additional observations from a re-analysis of the deposited data

Results flagged for a closer look

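The treatment difference of Cdkn1a on slides 2 and 3 minus that on slide 1 was -1.30 (SE 0.22, adjusted p = 0.0137, limma). All 4 controls of slide 2 were higher than all 4 fipronil arrays of slide 3, whereas both controls of slide 1 were lower than both fipronil arrays there. For Cdk6, at the probe from base 3184, the same quantity was 1.27 (SE 0.34, adjusted p = 0.0426), in the opposite direction. The cause was not tested for either gene.

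The Ccnd1 probe at base 3431 had 1 control array apart from the rest: replicate 3 read -5.46 and the next lowest -4.97, a gap that is 0.74 of the group's range. This signal was below the detection limit. Among 32 groups examined 1 stood out in this way, and chance alone gives about 1 in 20.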

How the results depend on the processing

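Of the 8 tested genes, the decreases of Cks1b and Cdk2 kept their sign under all 14 alternatives and their calls under 12 and 11. These 14 are not separate checks. The settings for filters, outlier spots and the variance trend left both differences unchanged, as did the mean of all probes for Cdk2. Slide as a fixed block repeats the slide 1 comparison. Slides 2 and 3 alone, where slide and treatment cannot be told apart, is also among the 14. With slide as a fixed block the differences were -0.67 for Cks1b, -0.47 for Cdk2, 0.13 for Cdk4, -0.56 for Cdk6 and 0.59 for Cdkn1a, and 0 members were lower past the threshold. With slide as a random block Cdk2 was at -0.65 and 1 member was lower. The replicate numbers 2, 3, 7 and 8 occur in both groups, and deviations of same-numbered arrays, always on different slides, correlated at 0.43, 0.08, -0.11 and -0.31, so they were not taken as pairs. The replicate block gave -0.73 for Cks1b, -0.77 for Cdk2 and -0.071 for Cdk6, and 0 members were lower; 0 genes passed limma's test in that fit of 4 shared numbers, with 2164 at p below 0.05 before adjustment. Normexp background with the 75th percentile gave -0.50 for Cdk4, 0.40 for Rb1, 1 member higher, and -0.63 for Cks1b on slide 1 (adjusted p = 0.0387). Without a filter on dim probes Rb1 was at -0.51 (adjusted p = 0.0308), and 1 member was higher, Ccnd2, below background on 12 arrays. The mean of all probes gave -0.050 for Cdk6 and 0.18 for Cdkn1b. Slides 2 and 3 alone, a setting chosen after seeing the data, gave -0.61 for Cdk4, 0.71 for Cdk6, -0.71 for Cdkn1a and -0.62 for Rb1, with 1 member higher and 5 lower. The cause of these changes was not tested.

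Leaving out each array in turn, Cks1b stayed between -0.83 and -0.75 and Cdk2 between -0.83 and -0.66, past the threshold in 12 of 12 fits (highest adjusted p 0.0191 and 0.0475). Cdk4 ranged from -0.50 to -0.29, Rb1 from -0.62 to -0.42, and members lower from 2 to 3. The 678 genes called overall became 6776 with normexp and the 75th percentile, 16313 with no filter on dim probes, 12 and 21 with slide as a fixed and a random block, 0 with the replicate block and 3044 on slides 2 and 3 alone. Leaving out 1 array gave 228 to 395 genes for 10 of the arrays, 889 without fipronil replicate 7 and 2022 without fipronil replicate 8. The median difference of all genes was 0.17 with normexp and the 75th percentile and 0.55 with no filter.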
